A study of Mus musculus with 234 samples.

Results

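The 10 genes described here encode the proteins that carry cargo from the cytosol to the lysosome and those that build and regulate the lysosome itself. They were taken by name from the count matrix, which lists 55538 features, and all 10 were found: the receptors *Sqstm1* and *Nbr1*, the LC3 and GABARAP family genes *Map1lc3a*, *Map1lc3b*, *Gabarap*, *Gabarapl1* and *Gabarapl2*, the lysosomal membrane proteins *Lamp1* and *Lamp2*, and the transcription factor *Tfeb*. Single cardiomyocytes (CMs) were hand-picked from Langendorff-dissociated mouse hearts, in which the vessels are perfused with enzyme, and their mRNA was read with SMART-seq2, a full-length method without molecular identifiers. CMs of 5 mice were counted. Of the controls, M26 gave 24 CMs and M73 gave 9. Of the homozygous mice, M25 gave 21 bright and 18 dim CMs and M116 gave 59 and 50, while mouse M72, the only heterozygous animal, gave 27 CMs labelled bright and 26 labelled dim.

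The transgenic mice carried human BAG3 with the P209L mutation fused to eGFP, in the Rosa26 locus and under the ubiquitous CAG promoter, in a line made from targeted embryonic stem cells. A stop cassette in front of the transgene was removed by PGK-Cre, which is active in all tissues, so that no CM-specific promoter was involved. The study's methods count mice as homozygous when both alleles carry the transgene, whether the cassette was deleted on 1 allele or on both. The controls were siblings without an active transgene, which could be wild-type or carry PGK-Cre or the uncut transgene alone. The labels give their strain as C57BL/6 and that of the others as PGKcre:BAG3P209L_homo or PGKcre:BAG3P209L_het. The mice reported on by the study were 2 weeks old, and the age of mouse M72 is not given. Bright and dim describe the eGFP fluorescence of a CM seen under the macroscope. Mice M25 and M26 shared 1 plate, mice M72 and M73 another, and mouse M116 filled 2 further plates without a control.

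Selective autophagy works through receptors such as p62 (the product of *Sqstm1*) and NBR1, which bind ubiquitylated cargo on one side and lipid-anchored LC3 or GABARAP proteins of the growing autophagosome on the other. The filled autophagosome then fuses with a lysosome, whose membrane is rich in LAMP1 and LAMP2, and lack of LAMP2 causes Danon disease, a cardiomyopathy with autophagic vacuoles. BAG3 is the co-chaperone that hands damaged filament proteins of striated muscle to this route, and TFEB is a transcription factor that binds E-box motifs near lysosomal genes. Transcript levels do not measure autophagic flux, since p62 and lipid-anchored LC3 are themselves degraded in lysosomes.

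The promoter of *Lamp1* is shown because it was the only member promoter with an E-box. A table of RefSeq promoters (GRCm38.p6), which spans 250 bases before and 50 after each start, matched 9 of the 10 members, all but *Map1lc3a*. The E-box CACGTG, which reads the same on both strands, was present in 1 of these 9 members and in 8.09% of the 27025 genes with a promoter. *Lamp1* held 4 copies, starting 61, 45, 28 and 15 bases before its start, and 8 of 32851 promoters, or 0.0244%, held at least 4. The 71 bases in front of its start, chr8:13159090-13159160 on the plus strand, read as follows, with the E-boxes in capitals.
Lamp1: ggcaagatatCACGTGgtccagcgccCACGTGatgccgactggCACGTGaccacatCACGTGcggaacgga
The longer form TCACGTGA was in none of the 9 and in 1.13% of genes. The core of the antioxidant response element, TGACNNNGC on either strand, was found in *Map1lc3b* only, against 14.0% of genes. These are matches of letters, and binding was not measured.

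The sum of the counts of all CMs of 1 mouse and 1 brightness class was the unit of comparison, because cells of 1 heart are not replicates of a genotype. The 8 sums held between 4096609 (control CMs of M73) and 40508124 counts (bright CMs of M116), and single CMs held between 487 and 1392253. Human BAG3 counts checked the labels: 8 and 2 counts were found in control CMs of M26 and M73, 279 and 216 normalized CPM (counts scaled to a common library size of 1e+06) in bright CMs of M25 and M116, and 10.3 and 93.2 in their dim CMs. In mouse M72 the order went against the labels, with 109 CPM in CMs labelled bright and 241 in CMs labelled dim. All 9 CM markers were detected in all 8 sums, at a summed 77592 to 97863 CPM. Macrophage markers summed to 1.69 to 22.7 CPM in control, homozygous bright and heterozygous dim sums, to 115 and 99.4 in homozygous dim CMs and to 47.3 in CMs labelled heterozygous bright. Fibroblast markers summed to 2656 CPM in bright CMs of M25, where 1 CM had 52217, and to 33.4 to 563 in the other sums. Endothelial markers summed to 263 and 357 CPM in controls, 178 and 171 in bright and 477 and 355 in dim CMs. In CMs labelled heterozygous bright and dim they summed to 254 and 472. A total of 5 CMs held at least 10 counts on each of at least 3 macrophage markers, 4 of them homozygous dim. Immediate-early and stress genes, which can follow dissociation, summed to 238 and 279 CPM in controls, 785 and 620 in bright and 307 and 701 in dim CMs, and their part in the results below was not tested.

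Per kilobase of exon, *Map1lc3a* was the most abundant member in all 8 sums, and *Tfeb* or *Nbr1* the least abundant. Scaled in this way, the mean normalized CPM in control CMs was 914 for *Map1lc3a*, 107 for *Gabarap*, 70.2 for *Sqstm1*, 38.7 for *Lamp1*, 24.9 for *Map1lc3b*, 6.44 for *Lamp2* and 2.20 for *Tfeb*. The union of annotated exons was taken as the length, which lowers the values of genes with long alternative ends such as *Map1lc3b* and *Lamp2*. At *Lamp1*, *Gabarap* and *Sqstm1* the order changed between sums, so these neighbours cannot be ranked. *Gabarapl1* took rank 4 in control CMs of M73 and ranks 7 to 9 elsewhere. A *Map1lc3a* count was found in 227 CMs (97.0% of all) and a *Gabarapl1* or a *Tfeb* count in 128 each (54.7%). When the 214 deeper CMs were thinned to 100000 counts each, 99.5%, 42.1% and 43.9% of them kept a count of these 3 genes.

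No member passed the test in any of the 3 comparisons made between groups of 2 mice. In bright against control CMs, 0 of 10 members passed the adjusted threshold of 0.05 of edgeR's quasi-likelihood test, where 0.0164% of the 12203 genes tested did. These were the 2 transgene features. None had an unadjusted p under 0.05 (6.55% of all genes), and DESeq2 called none (0.869% of all genes). In dim against control CMs the members' counts were again 0, 0 and 0, against 0.0%, 6.22% and 0.451% of 12195 genes. In bright against dim CMs they were 0, 0 and 0, against 0.0%, 4.12% and 0.662% of 13439 genes. The 2 comparisons with controls share the control mice and are not independent. The median log2 fold change of the 10 members was 0.24 in bright against control, where that of all genes was 0.11, and 0.25 in dim against control, where that of all genes was 0.10. Scaling by library size in place of TMM moved the medians of all genes to 0.41 and 0.38 and those of the members to 0.55 and 0.54.

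**Figure D1:**
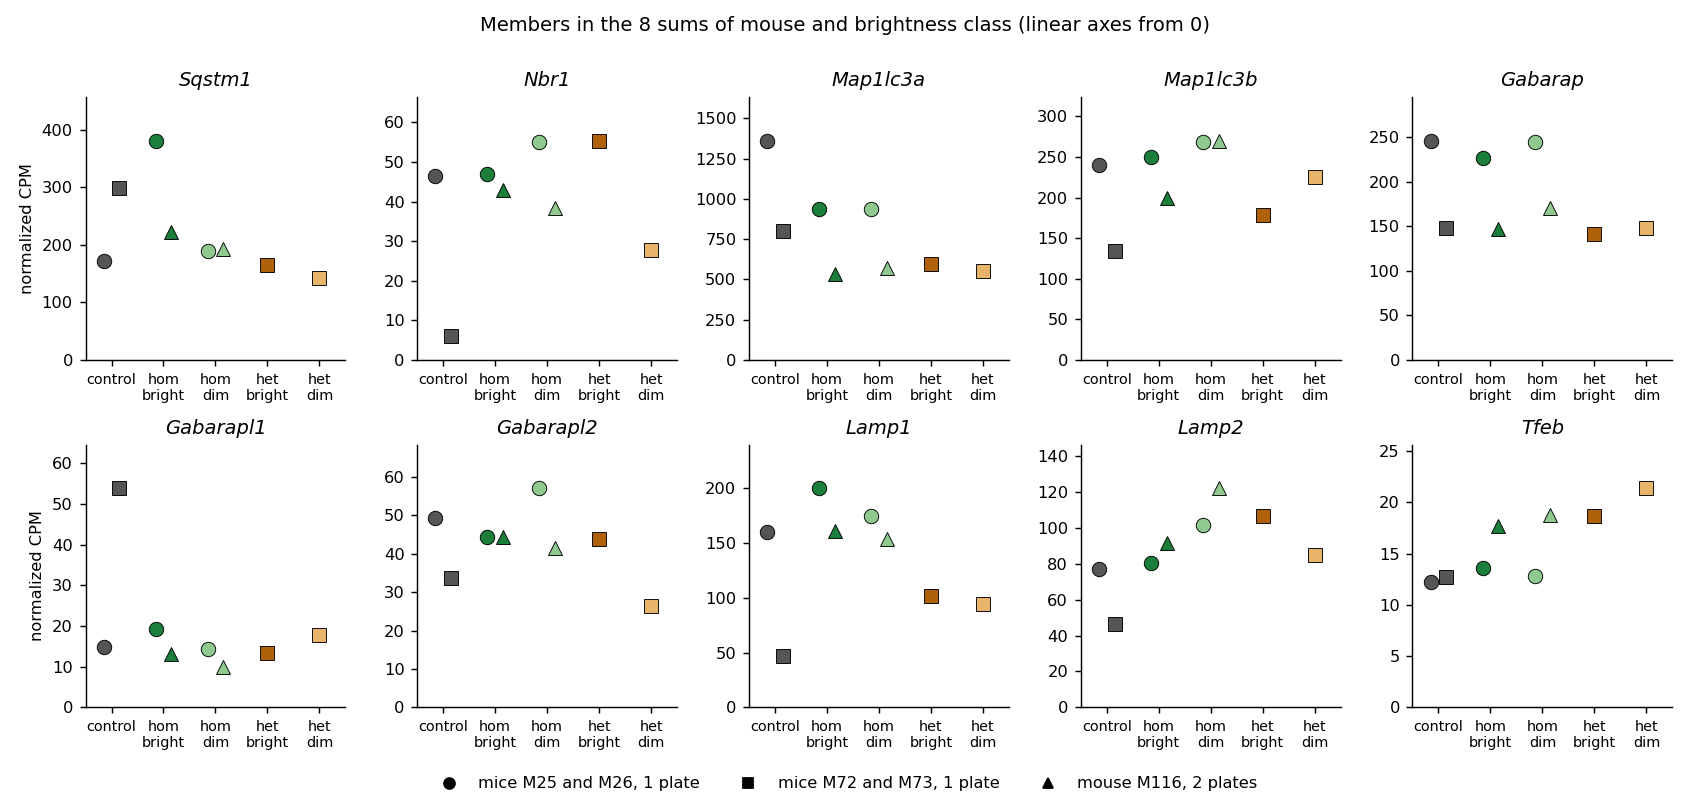
Normalized CPM of the 10 members (1 panel each, linear axes from 0) in the 8 sums of mouse and brightness class; 1 point is 1 sum, and the symbol gives the plate. In most panels the gap between the 2 control mice is as wide as the gap between genotypes, as for *Lamp1* with 160 and 46.7.

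Among the receptors, *Sqstm1* (ENSMUSG00000015837.15, chr11:50199366-50210827, minus strand) had normalized levels of 172 and 299.7 CPM in control CMs of M26 and M73, 381 and 222 in bright CMs of M25 and M116, and 189 and 194 in dim CMs. The CMs labelled heterozygous bright and dim had 165 and 143. Bright and control CMs overlapped, with a log2 fold change of 0.29 ± 0.44 (SE, adjusted p = 0.966). Bright CMs lay above dim CMs in both homozygous mice, by 0.64 ± 0.31 on the log2 scale (unadjusted p = 0.0904, adjusted p = 0.999 by edgeR). With a replicate block for the mouse, bright and dim CMs being paired within a heart, the difference was 0.58. It was 0.16 without the bright CMs of M25, 1.00 without those of M116, and 0.053 when each CM had equal weight (the mean of log2(CPM + 1) over CMs). On that scale the differences from control were 1.07 in bright and 1.02 in dim CMs.

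A few CMs carried much of the *Sqstm1* signal. In bright CMs of M25, 1 CM at 2121 CPM held 26.5% of the counts and the 3 highest CMs held at least as many as all others together. Without the highest CM the level, not TMM-scaled, went from 400.1 to 310 CPM. The second highest CM of M25, at 2006 CPM, was the one with 52217 CPM of fibroblast markers. It had 3.53 CPM of *Map1lc3a*, where the median of bright CMs of M25 was 992. It stayed in the main sum and is called a CM here only because all picked cells are. Without this CM the *Sqstm1* level of the sum was 325 CPM. The highest bright CM of M116 reached 2424 CPM. The highest dim CM of M116, at 986 CPM, was 1 of those with macrophage markers. Median levels per CM were 247 and 164 CPM in bright, 174 and 175 in dim and 164 and 196 in control CMs, so that only the bright CMs of M25 stood above the rest. In mouse M116, bright CMs of its 2 plates had 163 and 319 CPM, and dim CMs 202 and 214.

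**Figure D2:**
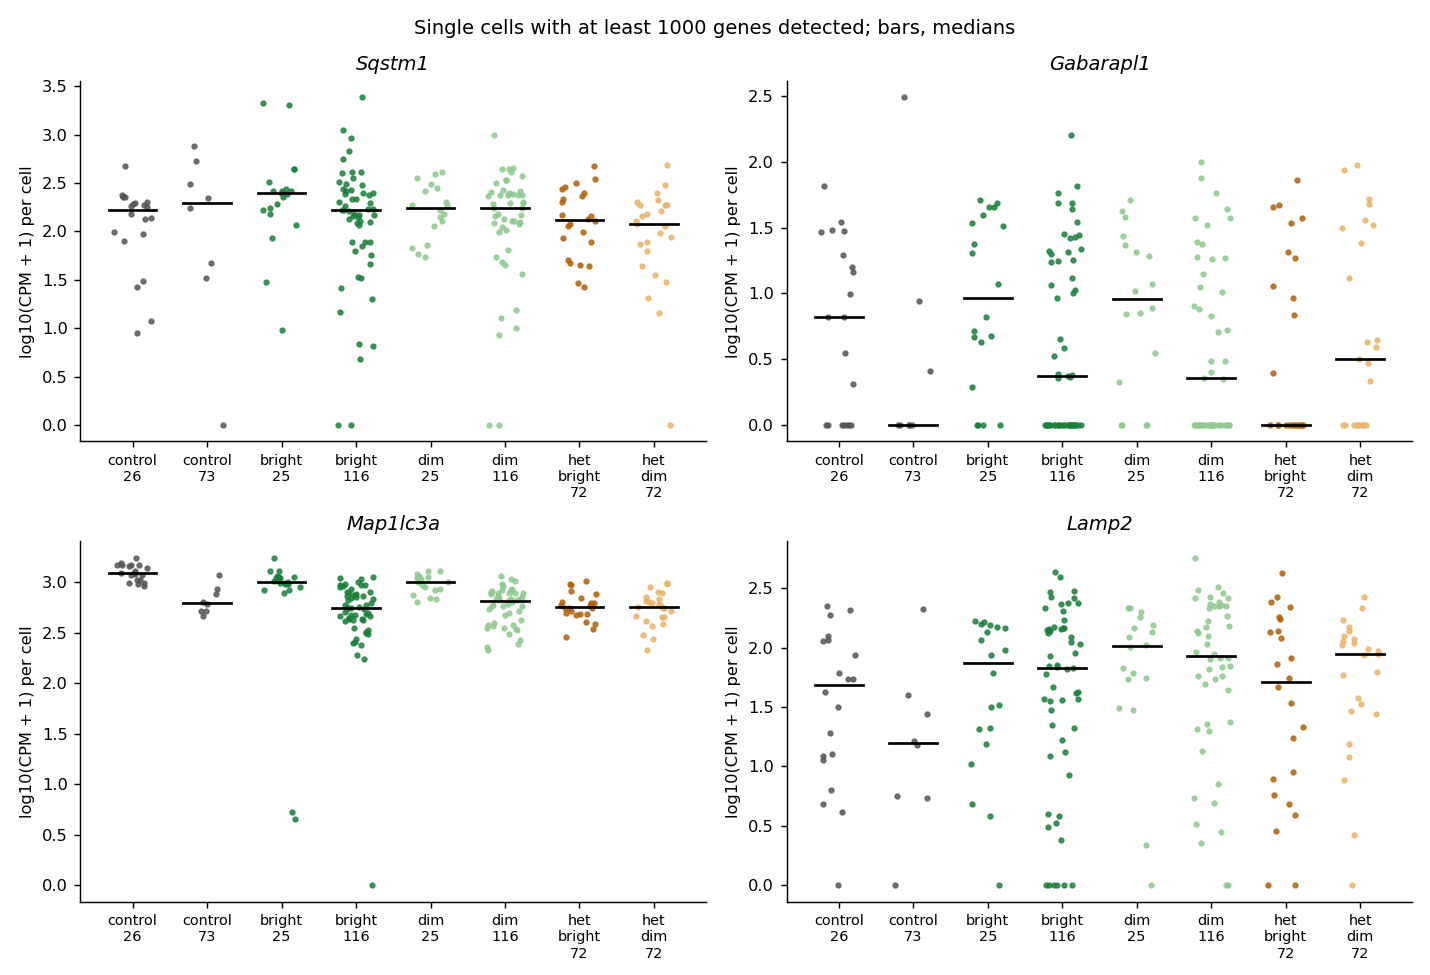
Levels of *Sqstm1*, *Gabarapl1*, *Map1lc3a* and *Lamp2* as log10(CPM + 1) in single CMs with at least 1000 genes detected; dots are CMs, bars medians, and columns the 8 sums. A single control CM of M73, at 307 CPM, holds nearly all *Gabarapl1* counts of that mouse, and *Map1lc3a* is the most even of the 4.

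*Nbr1* (ENSMUSG00000017119.19, chr11:101552149-101581951, plus strand), the second receptor, had 46.6 and 5.95 CPM in control CMs, 47.1 and 42.9 in bright and 55.2 and 38.4 in dim CMs, and 55.3 and 27.7 in heterozygous CMs labelled bright and dim. Only control mouse M73 was low. Its log2 fold changes of 0.73 ± 0.90 (adjusted p = 0.953) and 0.79 ± 0.89 (adjusted p = 0.999) against control rest on that mouse. Without M73 they were -0.067 and -0.0099. Without M26, dim CMs were higher than M73 by 2.92 (adjusted p = 0.0439 by edgeR, where 827 genes, 5.89% of those tested, passed). With M73 the only control left, such a fit takes the spread within groups from the 2 sums of the other group, moderated over all genes, and assumes that M73 varies like them. The *Nbr1* value of M73 came from few counts, of which 81.0% lay in 1 CM.

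In the LC3 and GABARAP family, which supplies the docking proteins of the autophagosome membrane, *Map1lc3a* dominated. *Map1lc3a* (ENSMUSG00000027602.9, chr2:155276297-155278073, plus strand) had 1360 and 799 CPM in control CMs, 936 and 537 in bright, 939 and 572 in dim, and 598 and 550 in heterozygous CMs labelled bright and dim. Its log2 fold change was -0.60 ± 0.40 in bright (adjusted p = 0.905) and -0.55 ± 0.40 in dim CMs (adjusted p = 0.983). Without M26 these values were -0.20 and -0.13, without M73 -0.90 and -0.86, without M25 -1.04 and -0.93, and without M116 -0.24 and -0.22. On each shared plate the control CMs were the higher ones, with log2 differences of -0.54 and -0.53 for bright and dim CMs of M25 against M26 and of -0.42 and -0.54 for those of M72 against M73. With equal weight for each CM the dim difference turned to 0.38. *Map1lc3b* (ENSMUSG00000031812.16, chr8:121590361-121598760, plus strand) had 240 and 135 CPM in control, 249.6 and 199.5 in bright, 269 and 270 in dim, and 179 and 225 in heterozygous CMs. Dim CMs lay above both controls by 0.48 ± 0.37 (adjusted p = 0.987), or by 0.15 without M73 and 0.94 without M26, and bright CMs overlapped with them. In control CMs of M73, 1 CM held 50.8% of the *Map1lc3b* counts, and without that CM the level, not TMM-scaled, was 67.6 CPM. With equal weight for each CM the differences were 1.55 in bright and 2.25 in dim CMs.

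The ratio of *Map1lc3a* to *Map1lc3b* counts needs no scaling between libraries. It was 5.67 (95% exact binomial interval 5.49 to 5.86) and 5.93 (5.38 to 6.54) in control CMs of M26 and M73. It was 3.75 and 2.69 in bright CMs of M25 and M116, 3.50 and 2.12 in dim CMs, and 3.34 and 2.44 in CMs of M72 labelled bright and dim. Both control sums lay above all 6 transgenic sums, on the shared plates too. These 6 ratios come from only mice M25, M116 and M72, and how often other gene pairs give such an order was not counted. The mean was 5.80 ± 0.182 in control, 3.22 ± 0.75 in bright and 2.81 ± 0.973 in dim CMs (SD, n = 2 mice each), with an exact two-sided permutation p of 0.333 for each comparison, the smallest that 4 mice allow. The difference was -0.87 in bright and -1.09 in dim CMs on the log2 scale, and both stayed negative in every alternative run. How close the control ratios lie to each other, and so their small SD, rests on the CM of M73 with 50.8% of that mouse's *Map1lc3b* counts. The ratio without this CM was not computed. By the median over CMs, the log2 ratio was 2.47 in M26 and 2.95 in M73.

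Other values moved with this ratio. Within mouse M116 it was 4.19 and 1.57 in bright CMs of its 2 plates and 2.99 and 1.20 in dim CMs, which by summed counts is a larger factor than that between genotypes. By the median over CMs, the log2 difference between these plates was -0.56 in bright and -1.51 in dim CMs, and that against control was -0.98 and -1.27. *Map1lc3b* has 7.52 kb of annotated exons and *Map1lc3a* 1.18 kb, and in bright against control CMs the median log2 fold change of all tested genes was -0.077 under 1500 bases, 0.13 from 1500, 0.21 from 3000 and 0.056 from 6000 bases upward. The part of plate and transcript length in the ratio was not tested further. SMART-seq2 does not keep the strand, and how reads were assigned among similar copies of these genes in the genome was not tested.

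**Figure D3:**
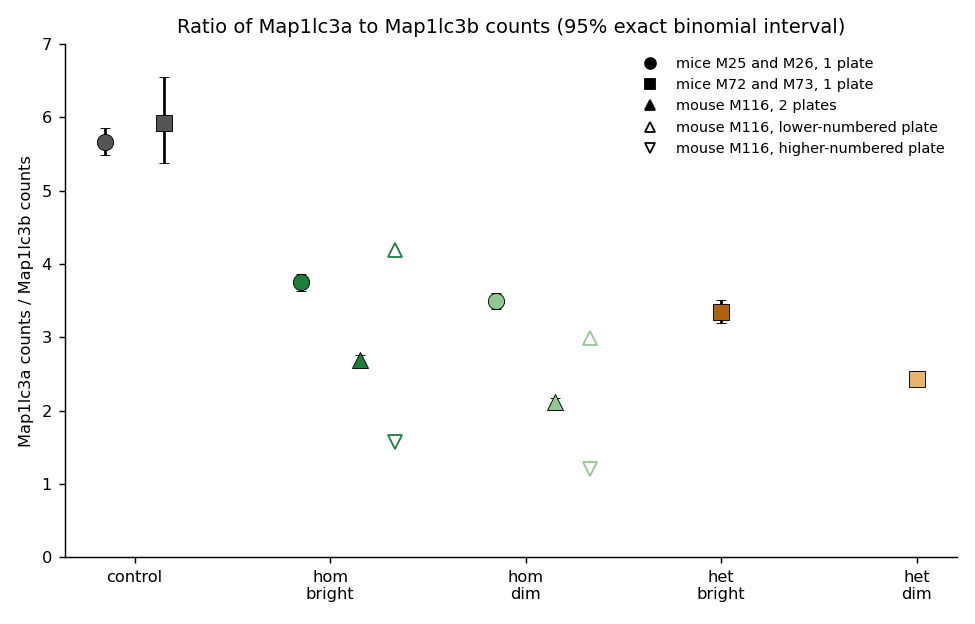
Ratio of *Map1lc3a* to *Map1lc3b* counts (linear axis from 0) in the 8 sums, with 95% exact binomial intervals that cover counting error only. Both control sums lie at 5.67 and 5.93 and all transgenic sums between 2.12 and 3.75, while open triangles show that the 2 plates of mouse M116 differ from each other.

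*Gabarap* (ENSMUSG00000018567.14, chr11:69991143-69994951, plus strand) had 246 and 148 CPM in control, 227 and 147 in bright, 244 and 170.1 in dim, and 141 and 148 in heterozygous CMs. Its levels were high in M25 and M26, which shared a plate, and lower in the other mice, and the log2 fold changes were -0.12 ± 0.39 and 0.037 ± 0.39 against control. *Gabarapl2* (ENSMUSG00000031950.7, chr8:111940703-111953612, plus strand) had 49.1 and 33.7 CPM in control, 44.3 and 44.3 in bright, 56.9 and 41.4 in dim, and 43.9 and 26.4 in heterozygous CMs, with log2 fold changes of 0.038 ± 0.47 and 0.21 ± 0.48. Per kilobase, *Map1lc3a* made up 76.2% to 85.6% of the family's signal in the 8 sums and *Gabarap* 9.81% to 14.5%. *Map1lc3b* made up 2.37% and 2.20% in controls and 3.40% to 5.65% in the 6 transgenic sums.

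*Gabarapl1* (ENSMUSG00000030161.8, chr6:129533160-129542346, plus strand), a family member known as a FoxO target in muscle, had the largest fold changes of the members in the comparisons with control. Its levels were 14.8 and 53.8 CPM in control, 19.2 and 13.2 in bright, 14.4 and 10.05 in dim, and 13.3 and 17.7 in heterozygous CMs. Only control mouse M73 stood apart. The log2 fold changes were -1.16 ± 0.81 in bright (adjusted p = 0.914) and -1.54 ± 0.82 in dim CMs (adjusted p = 0.931). In M73, 97.9% of the 190 counts lay in 1 CM, and without that CM the level, not TMM-scaled, was 1.15 in place of 46.4 CPM. Without mouse M26 the log2 fold changes were -1.82 in bright (adjusted p = 0.105 by edgeR) and -2.20 in dim CMs (adjusted p = 0.0506). Without mouse M73 the bright CMs were higher, by 0.11, and the dim CMs lower, with a log2 fold change of -0.30. With equal weight for each CM the differences were 0.76 and 0.65. The ratio of *Gabarapl1* to *Gabarap* counts was 0.0604 and 0.365 in control, 0.0846 and 0.0901 in bright and 0.0589 and 0.0591 in dim CMs.

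Neither of the lysosomal membrane genes passed the test. *Lamp1* (ENSMUSG00000031447.7, chr8:13159161-13175338, plus strand) had 160 and 46.7 CPM in control, 199.7 and 161 in bright, 175 and 154 in dim, and 102 and 94.6 in heterozygous CMs. Bright CMs lay above both controls, by 0.76 ± 0.57 on the log2 scale (adjusted p = 0.925), though the bright CMs of M116 and control CMs of M26 differed by under 1 CPM. Dim and heterozygous CMs overlapped with the controls, and the dim fold change was 0.63 ± 0.57 (adjusted p = 0.999). Without M73 the differences were 0.15 in bright and 0.017 in dim CMs. Without M26 they were 1.86 (adjusted p = 0.0853) and 1.76 (adjusted p = 0.0477), so that *Lamp1*, whose promoter with 4 E-boxes is shown above, passed in dim CMs against M73 alone, together with 5.89% of all genes. With both control mice in the fit no change of *Lamp1* was detectable. With equal weight for each CM the differences from control were 1.54 in bright and 1.41 in dim CMs, and neither passed.

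*Lamp2* (ENSMUSG00000016534.15, chrX:38401357-38456454, minus strand) had 76.9 and 46.2 CPM in control, 80.3 and 91.6 in bright, 101 and 122 in dim, and 106 and 84.7 in heterozygous CMs, so that both control sums were below all 6 transgenic sums. These 6 sums come from only mice M25, M116 and M72, and the share of all genes with such an order was not counted. The log2 fold changes were 0.42 ± 0.41 in bright (adjusted p = 0.939) and 0.81 ± 0.41 in dim CMs (unadjusted p = 0.0903, adjusted p = 0.921). Without M73 they were 0.14 and 0.51, and without M26 0.80 and 1.21. With equal weight for each CM they were 1.35 and 2.01. In both homozygous mice the dim CMs had more than the bright ones (-0.39 ± 0.22 for bright against dim, adjusted p = 0.999). All 5 CMs with macrophage markers had more *Lamp2* than the median of the other CMs of their sum, 138 to 243 CPM against 45.7 to 101. Without these CMs the dim fold change was 0.74. In control CMs of M73, 1 CM held 64.4% of the 163 *Lamp2* counts. The ratio of *Lamp1* to *Lamp2* counts was 2.08 and 1.01 in control, 2.49 and 1.75 in bright and 1.73 and 1.26 in dim CMs, with exact two-sided permutation p-values of 0.667 and 1.0.

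*Tfeb* (ENSMUSG00000023990.18, chr17:47737030-47792419, plus strand) had 12.2 and 12.7 CPM in control, 13.6 and 17.7 in bright, 12.8 and 18.8 in dim, and 18.7 and 21.4 in heterozygous CMs. The transgenic sums were all above both controls, but those of M25 by under 1 CPM. In control CMs of M73, 1 CM held 73.3% of the 45 *Tfeb* counts, and without that CM the level, not TMM-scaled, was 3.27 CPM. The near-equal values of the control mice therefore rest on 1 CM. As for *Lamp2*, the share of all genes with this order was not counted. The log2 fold changes were 0.26 ± 0.78 and 0.29 ± 0.79 (adjusted p = 0.98 and 0.999), or 0.083 and 0.0052 without M116 and 0.46 and 0.57 without M25. TFEB is controlled mainly by phosphorylation and its place in the cell, which these data do not measure.

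**Figure D4:**
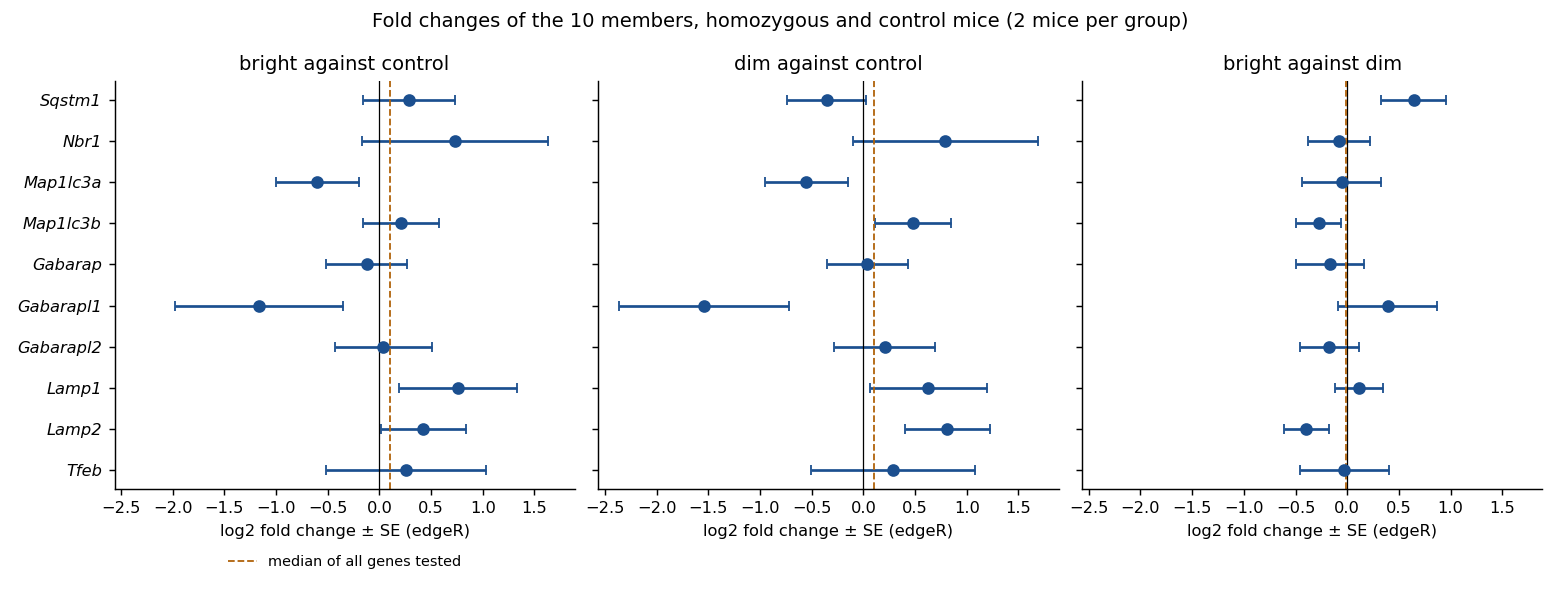
Log2 fold changes of the 10 members with their standard errors from edgeR (linear axis) in the 3 comparisons, 2 mice per group; the dashed line is the median of all genes tested. Against control the widest bars belong to *Nbr1*, *Gabarapl1* and *Tfeb*, and *Gabarapl1* lies lowest at -1.16 and -1.54.

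Counts of members whose groups did not overlap stayed near those of all genes. In bright against control CMs this held for 3 of 10 members (*Lamp1*, *Lamp2* and *Tfeb*) and for 38.9% of all genes. In dim against control CMs it held for 4 (*Map1lc3b*, *Lamp2* and *Tfeb* higher, *Gabarapl1* lower) and for 37.9% of genes. In bright against dim CMs it held for 3 (*Sqstm1* higher, *Map1lc3b* and *Lamp2* lower) and for 31.0% of genes. The study's own kind of test, a Wilcoxon test that takes each CM as a replicate, called 45 of the 630 genes it compared in bright against control CMs (7.14%) and none of the 3 members that passed its fold and detection limits.

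With equal weight for each CM, 9 of 10 members were above 0 in bright and 10 in dim against control CMs, and none passed (lowest adjusted p = 0.528 and 0.45 by limma). Their values ran from -0.29 (*Map1lc3a*) to 1.60 (*Nbr1*) in bright and from 0.38 (*Map1lc3a*) to 2.25 (*Map1lc3b*) in dim CMs. Their medians were 0.98 and 1.20, where those of all genes were 0.32 and 0.39; in the edgeR fit of the sums the medians were 0.24 and 0.25 against 0.11 and 0.10. In bright against dim CMs 3 members were above 0, with a median of -0.37 against -0.058 for all genes. The equal-weight mean took in every CM, also those with under 1000 genes detected, which hold few or no counts of a member. Such CMs were 4 of 24 and 1 of 9 in controls (M26 and M73). They were 1 of 21 and 3 of 59 in bright and 0 of 18 and 2 of 50 in dim CMs (M25 and M116). Their part in the equal-weight values was not tested.

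No gene of 10 further pathway lists passed the adjusted threshold in any comparison. In bright against control CMs, the median log2 fold change was 0.36 for the 10 LC3 conjugation genes (7 higher, 3 lower), 0.12 for the 27 lysosomal hydrolases tested (14 higher, 13 lower), -0.092 for 16 subunits of the vacuolar ATPase, the proton pump of the lysosome (7 higher, 9 lower), and 0.34 for 11 other lysosomal membrane proteins (6 higher, 5 lower). It was -0.19 for 16 initiation and nucleation genes (6 higher, 10 lower), 0.066 for 13 other receptors, 0.17 for 14 fusion genes, 0.081 for 19 MiT/TFE factors and regulators, -0.15 for 7 genes of the Keap1-Nrf2 axis and -0.11 for 9 genes of the BAG3 pathway. In dim against control CMs the medians ran from -0.31 (Keap1-Nrf2 axis) to 0.60 (LC3 conjugation). In bright against dim CMs they ran from -0.21 (LC3 conjugation) to 0.11 (initiation and nucleation).

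**Figure D5:**
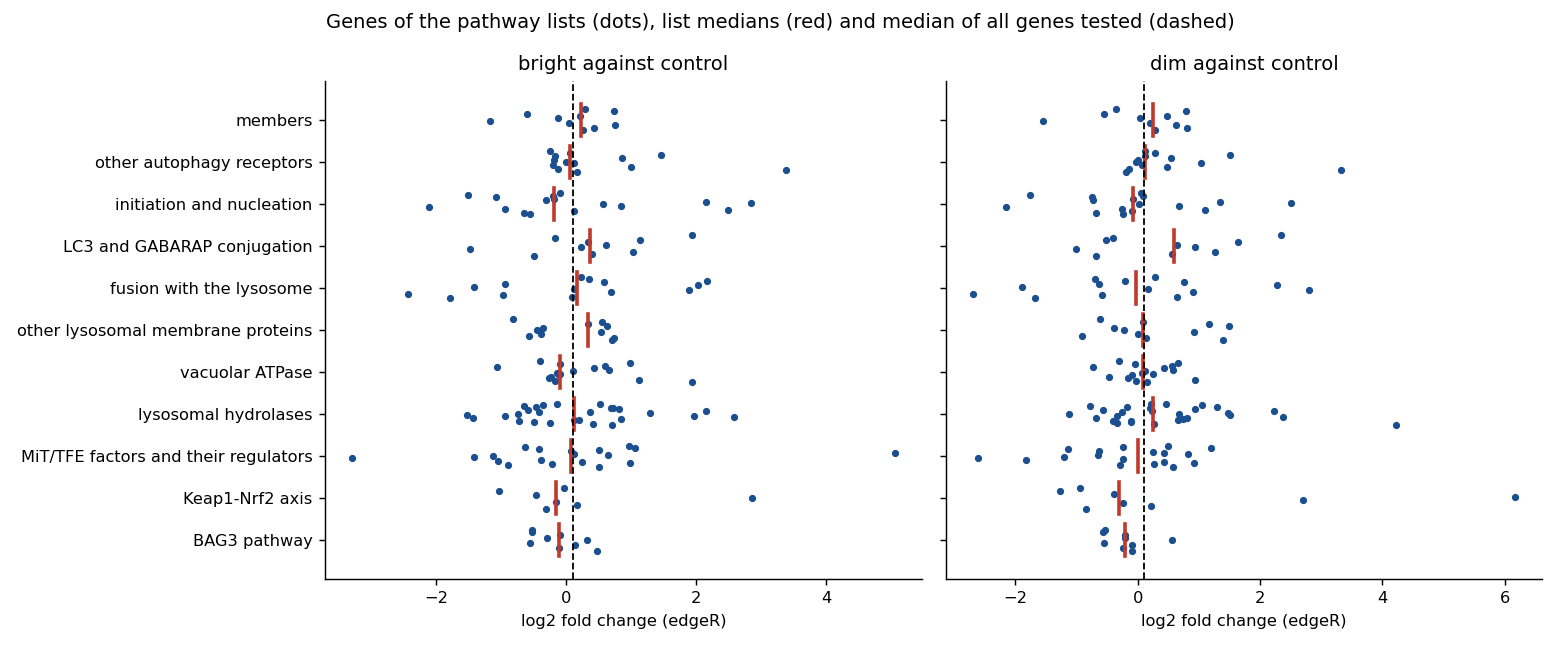
Log2 fold changes of the members and of 10 further lists (linear axes) in bright and dim against control CMs; dots are genes, red bars list medians, and the dashed line is the median of all genes tested. Every list spans 0, and the list medians lie between -0.31 and 0.60.

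None of 14 reference genes of the pathway passed the adjusted threshold, with the exception of *Atg5* in dim CMs when control mouse M26 was left out (3.79, adjusted p = 0.0454 by edgeR, with 5.89% of all genes passing and M73 as the only control). *Ctsd*, the aspartic protease cathepsin D, had the lowest unadjusted p among them, at -0.65 ± 0.31 in bright and -0.79 ± 0.30 in dim against control CMs (unadjusted p = 0.0793 and 0.0375, adjusted p = 0.84 and 0.752), and turned to 0.30 and 0.32 with equal weight for each CM. The cysteine proteases *Ctsb* and *Ctsl* had -0.14 ± 0.47 and 0.72 ± 0.55 in bright CMs. *Becn1*, of the kinase complex that starts the autophagosome, had -0.30 ± 0.61, *Atg5* and *Atg7*, of the conjugation machinery, 0.22 ± 1.20 and -1.47 ± 0.85, and *Atp6v1a*, of the proton pump, 0.65 ± 1.06. The mitophagy receptors *Bnip3* and *Bnip3l* had -0.19 ± 0.54 and 0.00093 ± 0.51 and *Optn*, a further receptor, -0.24 ± 0.87. *Tfe3*, a relative of TFEB, had 0.96 ± 1.22, *Nfe2l2*, which encodes Nrf2, -1.02 ± 0.57 and *Keap1*, its inhibitor, -0.029 ± 0.81. Endogenous *Bag3* had -0.52 ± 0.29 in bright and -0.53 ± 0.35 in dim CMs (adjusted p = 0.874 and 0.975).

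Over all lists without the members, 5 of 142 genes (3.52%) had an unadjusted p under 0.05 in bright against control, 8 of 143 (5.59%) in dim against control and 3 of 145 (2.07%) in bright against dim CMs, below the shares of all genes given above. Some of them, named after their values were seen, are given as examples. *Fnip2* had the lowest p in bright CMs, with -3.28 ± 0.92 (unadjusted p = 0.0113, adjusted p = 0.663). The receptor gene *Calcoco1* had 1.46 ± 0.56 in bright and 1.51 ± 0.56 in dim CMs (adjusted p = 0.724 and 0.735). *Fnip1*, a partner of folliculin in the control of TFEB, had -1.41 ± 0.48 and -1.20 ± 0.47 (adjusted p = 0.663 and 0.755), and *Vps33a*, of the HOPS tethering complex, -2.43 ± 0.96 and -2.69 ± 0.90 (adjusted p = 0.739 and 0.735). These pairs of values share the control mice. *Cd68*, a lysosomal protein that also marks macrophages, had 4.22 ± 1.69 and *Hmox1*, which macrophages express too, 6.17 ± 1.98 in dim CMs. Without the 4 macrophage-marked dim CMs, *Cd68* went from 343 to 48 counts in dim CMs and was too low to be tested, and *Hmox1* had 3.26 ± 1.86.

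Across the 219 CMs with at least 1000 genes, the members were weakly correlated. Spearman's rho of their 45 pairs ran from -0.0847 to 0.204, with a median of 0.0497, where that of all pairs of widely detected genes was 0.0459. Within the 58 CMs of the plate of M25 and M26 it ran from -0.15 to 0.429, with a median of 0.153, and within the other 161 CMs from -0.139 to 0.165, with a median of 0.0172. The highest pair on the plate of M25 and M26 was *Map1lc3b* and *Tfeb*. The gene nearest to *Sqstm1* was *Acta1* (rho = 0.285), followed by *Cdkn1a* (0.278) and *Lonp2* (0.277). Those nearest to *Lamp2* were *Sf3b2* (0.365), *Sema4d* (0.287) and *Snx6* (0.286), and those nearest to *Gabarapl1* were *2900026A02Rik* (0.315), *Ahsa1* (0.292) and *Ccz1* (0.291). CMs of 1 mouse and plate share depth and library, and values this weak in sparse counts are given as a description.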

How the data were processed

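Reads were aligned by the authors with STAR to a mouse reference extended by human BAG3 and eGFP and tallied per gene, and the deposited counts are whole numbers that were not normalized. Build, annotation and strand column are not given in the sources used here. The table's 55536 mouse features have the number and nearly all symbols of GENCODE M21, from which positions (GRCm38) were taken by symbol. All columns were mapped to a sample.

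Counts were summed per mouse and brightness class and tested by quasi-likelihood in edgeR 4.0.16 (R 4.3.3; genes kept by filterByExpr, TMM scaling, Benjamini-Hochberg, threshold 0.05), fitted on the 4 sums of each comparison, or on 3 with a mouse left out, when 1 group has a single sum and the spread comes from the other. Normalized CPM include TMM factors. Intervals are exact at the 95% level and, without molecular identifiers, cover counting error only; depths are given in the text. In the homozygous mice, bright and dim CMs are paired by animal; over 16615 genes the mouse difference in bright and dim CMs correlated at Pearson r = 0.0547. Heterozygous CMs come from 1 mouse and have no test.

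The members and lists were chosen with earlier results of these data known. Named genes are the 10 members, 14 reference genes, any list gene past the threshold and the 3 nearest genes of *Sqstm1*, *Gabarapl1* and *Lamp2* by Spearman's rho; other list genes were named after their values were seen. Alternatives were DESeq2 1.42.0, library size, no filter, CMs with at least 1000 genes, CMs without macrophage markers, equal weight per CM (limma 3.58.1), blocks, a Wilcoxon test over CMs, thinning, each mouse left out and, added after seeing the data, each member without its highest CM and bright CMs of M25 without the CM highest in fibroblast markers.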

Additional observations from a re-analysis of the deposited data

Results flagged for a closer look

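For 3 members the difference between bright and dim CMs had 1 sign in both homozygous mice and the opposite sign in the heterozygous mouse M72, as held for 25.9% of the 13439 genes tested. The difference between the genotypes was not tested, since there was 1 heterozygous mouse, and in this mouse the transgene was higher in the CMs labelled dim. For *Lamp2*, bright minus dim was -0.33 and -0.41 in M25 and M116 and 0.33 in M72 on the log2 scale, a gap of 0.70 to their mean. For *Gabarapl1* it was 0.41 and 0.40 against -0.41, a gap of -0.82. For *Map1lc3a* it was -0.0047 and -0.092 against 0.12, a gap of 0.17, with M25 close to 0. The classes of M72 were kept as labelled and its CMs were not regrouped by transgene. Taking its class with more transgene as the bright one would turn the sign of every M72 difference by construction. The 3 members above would then have the sign of the homozygous mice. *Sqstm1* (-0.21 in M72), *Map1lc3b* (0.34), *Gabarap* (0.072) and *Lamp1* (-0.11) would have the opposite sign instead. The share of all genes was not counted for the turned classes.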

How the results depend on the processing

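With 2 mice per group, M73 holding 9 CMs and 4096609 counts, modest differences were not detectable. No member passed the threshold except *Nbr1* and *Lamp1* in dim against control CMs without mouse M26, where M73 is the only control and the spread comes from the dim sums, and leaving out a mouse gave 0 to 2 members there, the 2 where 5.89% of all genes tested passed. Among reference genes the same setting let *Atg5* pass (3.79). TMM against library size shifted the median of all genes from 0.11 to 0.41 in bright and from 0.10 to 0.38 in dim against control CMs.

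Genes called in bright against control CMs (2 in the main test) were 106 with DESeq2, 163 without a filter, 4 with equal weight per CM, 10 with the batch as a block, 45 by the Wilcoxon test and 0 to 41 with a mouse left out. In dim against control CMs (0) they were 55, 58, 1, 12 and 3 to 827, the last without M26. In bright against dim CMs (0) they were 89 with DESeq2, 217 without a filter, 2 with equal weight and 0 to 74, the last without bright M116. The replicate block gave 0 genes and 0 members and changed no call. The median over CMs turned the ratio of *Gabarapl1* to *Gabarap* to 0.84 in bright CMs and that of *Lamp1* to *Lamp2* to -0.56 in bright and -0.87 in dim CMs.

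Single genes changed sign as follows, on the log2 scale, in each case with a value that did not pass; the cause was not tested. With library size, in bright against control CMs, *Gabarap* was 0.17, *Becn1* 0.036, *Optn* 0.019, *Bnip3* 0.11, *Ctsb* 0.14 and *Keap1* 0.32, and in dim CMs *Bnip3l* 0.26. With equal weight, in bright against control, *Gabarap* was 0.42, *Gabarapl1* 0.76, *Becn1* 0.84, *Atg7* 0.017, *Optn* 0.066, *Ctsb* 0.25, *Ctsd* 0.30, *Ctsl* -0.013, *Keap1* 0.62 and *Bag3* 0.30. In dim against control, *Sqstm1* was 1.02, *Map1lc3a* 0.38, *Gabarapl1* 0.65, *Becn1* 0.16, *Atg7* 0.083, *Bnip3l* 0.40, *Ctsd* 0.32, *Keap1* 0.025 and *Bag3* 0.71, and in bright against dim *Ctsd* -0.012, *Ctsl* -1.13, *Atp6v1a* -0.21 and *Bag3* -0.42. With the batch block, in bright CMs, *Optn* was 0.20, *Ctsb* 0.0063 and *Keap1* 0.059. With DESeq2, *Bnip3l* was -0.032 in bright and *Bnip3* -0.015 in dim CMs. Without a filter, *Keap1* was 0.024 in bright and *Bnip3l* 0.011 in dim CMs. Without macrophage-marked CMs, *Bag3* in bright against dim was -0.020.

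With a mouse left out, in bright against control, the ratio of *Gabarapl1* to *Gabarap* ran from -2.06 to 0.53, *Sqstm1* from -0.14 to 0.80, *Nbr1* -0.067 to 2.83, *Map1lc3b* -0.11 to 0.65, *Gabarap* -0.46 to 0.25, *Gabarapl1* -1.82 to 0.11, *Gabarapl2* -0.17 to 0.30, *Atg5* -0.65 to 3.04, *Optn* -0.99 to 1.45, *Bnip3* -0.43 to 0.12, *Bnip3l* -0.069 to 0.091, *Ctsb* -0.66 to 0.70, *Ctsl* -0.033 to 1.30, *Atp6v1a* -0.17 to 2.99 and *Keap1* -0.52 to 0.74. In dim against control, the ratio of *Lamp1* to *Lamp2* ran from -0.50 to 0.54, *Sqstm1* -0.71 to 0.14, *Nbr1* -0.0099 to 2.92, *Gabarap* -0.26 to 0.43, *Gabarapl2* -0.018 to 0.49, *Optn* -0.62 to 1.85, *Bnip3* -0.25 to 0.34, *Bnip3l* -0.089 to 0.058, *Ctsb* -0.32 to 1.08, *Ctsl* -0.22 to 0.80 and *Atp6v1a* -0.26 to 2.96. In bright against dim, *Nbr1* ran from -0.32 to 0.23, *Map1lc3a* -0.55 to 0.38, *Gabarap* -0.55 to 0.15, *Gabarapl2* -0.39 to 0.11, *Lamp1* -0.084 to 0.29, *Tfeb* -0.26 to 0.26, *Atg7* -1.07 to 0.14, *Optn* -0.81 to 0.25, *Bnip3l* -0.057 to 0.14, *Ctsd* -0.13 to 0.37, *Ctsl* -0.29 to 1.04, *Atp6v1a* -0.48 to 0.91, *Tfe3* -0.32 to 0.98, *Nfe2l2* -0.21 to 0.94 and *Bag3* -0.25 to 0.34.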
